A study of Mus musculus with 6 samples.

Results

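The BCL2 family decides at the mitochondrion whether a cell survives or dies, and 10 of its genes are described here in N2A cells in which the long non-coding RNA *Paupar* had been lowered. The 10 genes were chosen by name, as those transcript clusters (the probe groups of the array) that the platform annotation assigns to exactly 1 gene symbol of the set. They were *Bcl2*, *Bcl2l1*, *Bcl2l2*, *Mcl1*, *Bak1*, *Bcl2l11*, *Bad*, *Bid*, *Bmf* and *Hrk*, that is 10 of 19938 genes with such a cluster, and each had 1 cluster only. N2A is a mouse neuroblastoma line grown in medium with 10% fetal bovine serum. The knockdown group (3 arrays) held cells transiently transfected with 1.5 µg of a *Paupar* knockdown construct, a vector in which a U6 promoter drives a short hairpin RNA, and the control group (3 arrays) held cells given a non-targeting control vector in the same way. RNA taken 2.5 days later was measured on Affymetrix Mouse Gene 1.0 ST arrays, 1 array per sample. No cluster carried the name *Paupar*, so the depth of the knockdown was not analysed here, and no sorting for cells that took up the vector is described.

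Proteins of this family share short BCL2 homology (BH) stretches. BCL2, BCL-xL (from *Bcl2l1*), BCL-w (from *Bcl2l2*) and MCL1 keep cells alive by binding the family members that kill. BAK, from *Bak1*, and its relative BAX assemble into pores in the outer mitochondrial membrane, through which cytochrome c escapes and caspases are switched on. The BH3-only proteins BIM (from *Bcl2l11*), BAD, BID, BMF and Harakiri (from *Hrk*) sense damage or the loss of growth factors and act either by occupying the survival proteins or by activating BAK and BAX directly. Developing sympathetic neurons, the lineage from which neuroblastoma arises, are a classical setting for this control, since they die by this route when nerve growth factor is withdrawn. *Bax* was not analysed here.

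Upon *Paupar* knockdown *Bcl2* and *Bmf* fell, to a similar extent, and the other 8 genes did not pass the test. The level of *Bcl2* was 1.38-fold lower and that of *Bmf* 1.38-fold lower in knockdown cells, so that 1 survival gene and 1 gene that opposes survival were reduced together. No member rose. Values are log2 RMA values, in which a difference of 1 is a doubling. Genes were tested with limma after the less variable genes had been removed (interquartile range over the 6 arrays), and a gene was called changed at a Benjamini-Hochberg adjusted p under 0.05 over all genes tested. With this rule 2 of the 10 members fell, against 752 of all 19938 genes called in either direction (3.77%). Of the 9969 genes that passed the variation filter 7.54% were called, 5.16% as falls and 2.39% as rises. In a fit to all 19938 genes with no filter 612 genes (3.07%) were called, and of the members *Bcl2* alone.

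The labelled cell type was checked against marker genes. The 13 measured genes of 14 listed sympathetic neuroblastoma markers averaged between 11.31 and 11.45 on knockdown arrays and between 11.60 and 11.66 on control arrays, whereas list averages for fibroblast and muscle, glial, and blood and endothelial genes lay between 6.64 and 7.28 on the 6 arrays (values of different clusters are not on 1 scale). Of the neuroblastoma markers *Dbh* (log2 difference -1.09), *Th* (-0.68) and *Chgb* (-0.45) fell and none rose. The average of the line's own markers was lower on every knockdown array than on any control array. Among the uncalled markers *Gata2* alone had a positive difference, with all knockdown arrays above the controls (0.24). *Chga* lay below the controls on all knockdown arrays (-0.34). For the rest the groups overlapped and every difference was negative, from -0.25 for *Isl1* to -0.05 for *Tubb3*. No gene of the other marker lists was called. The part of these markers in the differences below was not tested, and in bulk RNA fewer cells of a type and less RNA per cell cannot be told apart. Correlations between arrays ranged from 0.986 to 0.994 and no pair shared more than 22 identical values of 35556, so each array was counted as a separate sample. Not every array correlated best within its own group. Knockdown replicate 3 correlated at 0.9934 with control replicate 3, and at 0.9927 and 0.9921 with knockdown replicates 1 and 2. The methods call the replicates biological without saying how the cultures were separated, and the p-values measure the spread between these arrays.

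**Figure D1:**
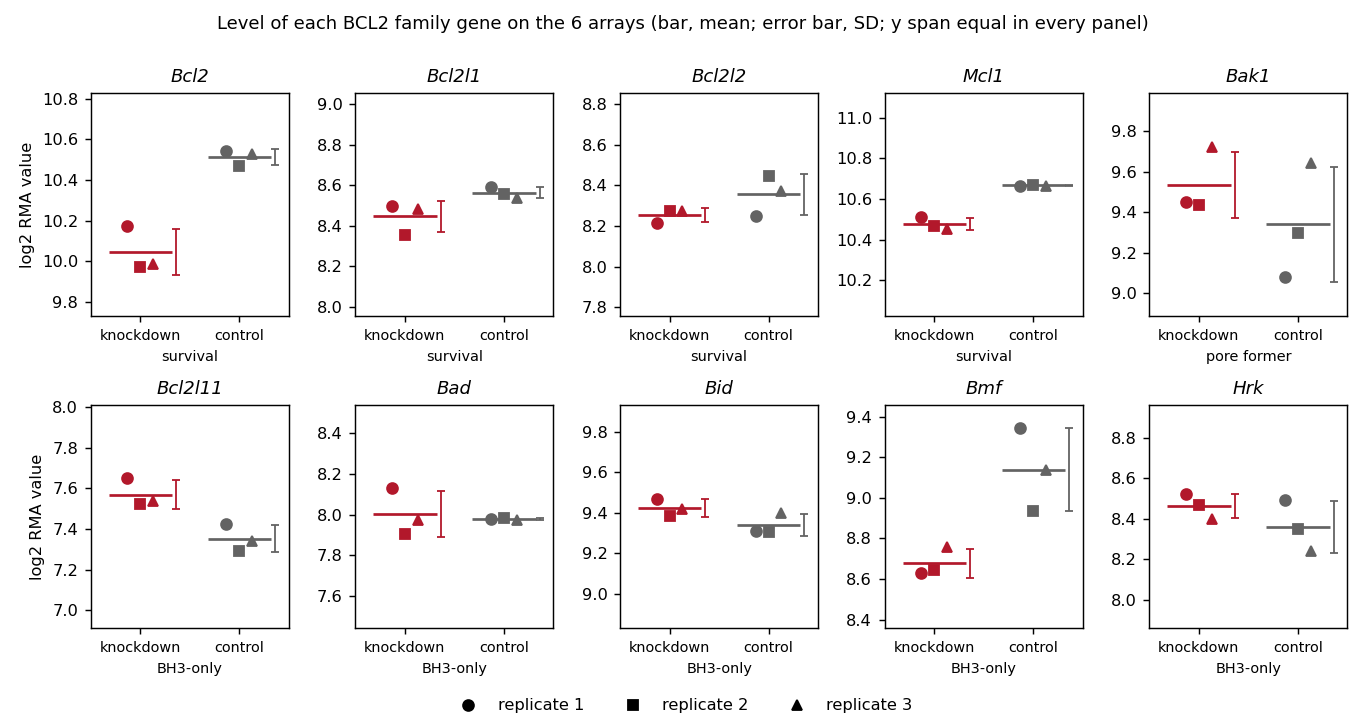
Log2 RMA value (y axis, equal span in every panel) of each of the 10 BCL2 family genes in *Paupar* knockdown (red) and control (grey) cells; each point is 1 array, the marker gives the replicate number, bars give the mean and error bars the SD (n = 3 per group). The knockdown points of *Bcl2* and *Bmf* lie below all control points, and *Bak1* spreads widely within both groups.

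*Bcl2*, the founding survival gene of the family, stood at 10.17, 9.97 and 9.98 on the 3 knockdown arrays and at 10.54, 10.47 and 10.53 on the 3 control arrays. The highest knockdown value lay 0.30 below the lowest control value, and knockdown replicate 1 was closest to the controls. The means were 10.04 ± 0.11 in knockdown cells and 10.51 ± 0.04 in control cells (SD, n = 3 each), a log2 difference of -0.47 (SE 0.12, 95% interval -0.72 to -0.22, limma adjusted p = 0.0291). As a ratio, knockdown over control was 0.722, with an interval of 0.607 to 0.859. The size of the difference placed *Bcl2* at the 96.4th percentile of all genes by absolute difference.

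*Bmf*, which encodes a BH3-only protein held on the myosin motor of the cytoskeleton until it is released to bind survival proteins, stood at 8.63, 8.64 and 8.76 on the knockdown arrays and at 9.35, 8.94 and 9.14 on the control arrays. The groups did not overlap, with a gap of -0.18, and here the control arrays differed among themselves more than the knockdown arrays did. The means were 8.68 ± 0.07 in knockdown cells and 9.14 ± 0.21 in control cells (SD, n = 3 each). The log2 difference was -0.46 (SE 0.13, 95% interval -0.74 to -0.19, limma adjusted p = 0.0450), just inside the threshold. In the fit without the filter the adjusted p of *Bmf* was 0.0583.

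Both calls depended on single arrays. *Bcl2* remained below the threshold without knockdown replicate 3 (adjusted p = 0.0361) or control replicate 2 (0.0377). It missed the threshold without knockdown replicate 1 (0.0624), knockdown replicate 2 (0.151), control replicate 1 (0.0634) or control replicate 3 (0.107). *Bmf* likewise passed without knockdown replicate 3 (0.0387) or control replicate 2 (0.0221) and missed without knockdown replicate 1 (0.156), knockdown replicate 2 (0.168), control replicate 1 (0.0973) or control replicate 3 (0.141). The log2 differences themselves kept their sign, between -0.54 and -0.43 for *Bcl2* and between -0.56 and -0.36 for *Bmf* with 1 array left out. The smallest fall of *Bmf* was that without control replicate 1, its highest control array. Over all genes the count of calls moved at the same time, to 201 without knockdown replicate 1, 138 without knockdown replicate 2, 1239 without knockdown replicate 3, 242 without control replicate 1, 786 without control replicate 2 and 112 without control replicate 3.

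**Figure D2:**
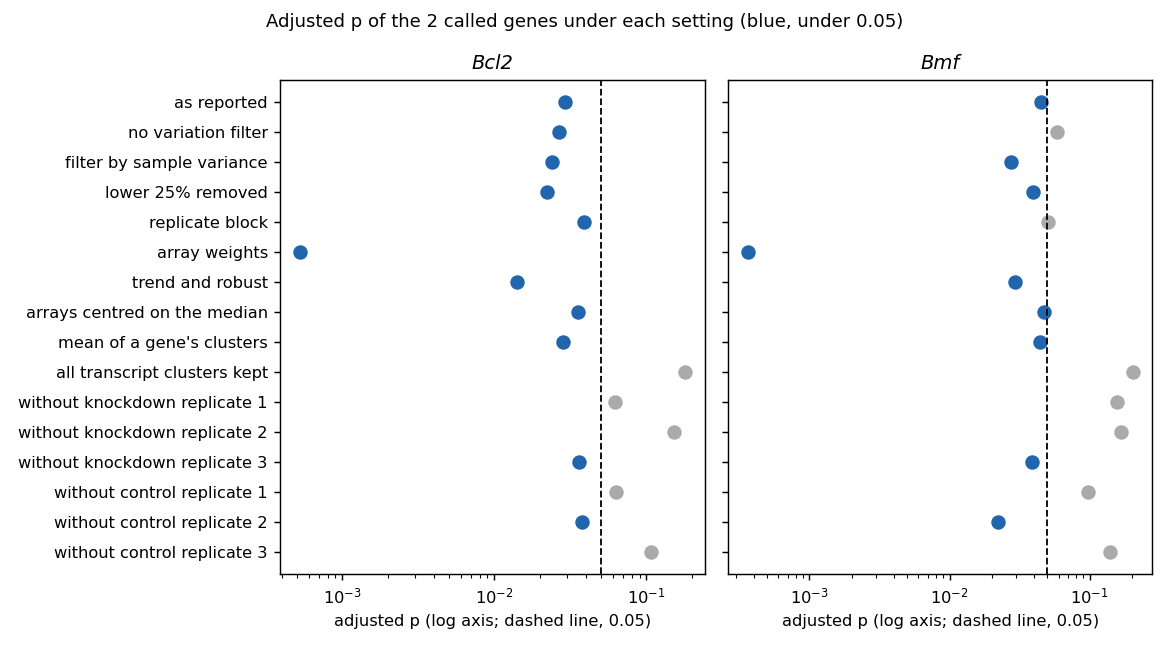
Adjusted p (x axis, log scale, dashed line at 0.05) of *Bcl2* and *Bmf* under the reported analysis and 15 alternatives (y axis). Blue points pass and grey points do not: *Bcl2* passed under 10 of the 15 alternatives and *Bmf* under 8, and both missed when any of 4 arrays was left out.

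The sequences just upstream of *Bcl2* and *Bmf* are shown because both genes fell while the windows shown have a different make-up. The 250 bases before the outermost annotated transcription start of each gene, from RefSeq on GRCm38.p6, run 5′ to 3′ on the gene's own strand, with capitals marking the motifs found.
*Bcl2*, chr1:106714291-106714540, minus strand: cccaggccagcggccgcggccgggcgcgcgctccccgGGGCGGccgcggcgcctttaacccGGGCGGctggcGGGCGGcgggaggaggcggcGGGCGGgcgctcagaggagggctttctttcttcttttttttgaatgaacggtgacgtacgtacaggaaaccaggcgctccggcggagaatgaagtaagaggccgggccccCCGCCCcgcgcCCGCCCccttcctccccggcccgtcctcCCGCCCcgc
*Bmf*, chr2:118549687-118549936, minus strand: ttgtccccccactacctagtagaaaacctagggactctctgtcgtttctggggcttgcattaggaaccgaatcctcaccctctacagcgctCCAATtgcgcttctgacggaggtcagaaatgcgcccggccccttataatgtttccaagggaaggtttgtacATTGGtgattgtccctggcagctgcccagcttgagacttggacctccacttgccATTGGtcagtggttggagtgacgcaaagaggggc

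The *Bcl2* window was 74.8% G and C and held 7 GC boxes, the letters GGGCGG on either strand that SP1-type factors bind. *Bmf* has 3 annotated windows, of which the outermost is shown. This outermost window was 54% G and C and held 3 CCAAT boxes (CCAAT, on either strand, as bound by NF-Y) and no GC box. Of the windows not shown, 1 held 1 CCAAT box and 1 held none of the motifs. Which start is used in N2A cells was not tested. The median window of all genes was 52.4% G and C. Of 32851 windows of this length over all RefSeq genes, 32.7% held a GC box and 33.8% a CCAAT box. Neither window held TATAAA (12.4% of all windows), the cAMP response element TGACGTCA (1.55%), the E-box CACGTG (6.02%), the FOXO letters GTAAACA (3.17%) or the E2F letters TTTCGCGC (0.256%), each sought on both strands and with none overlapping another motif in these windows. All 10 members matched the table, with 16 windows between them, since some have several starts: 8 held a GC box, 5 a CCAAT box, 1 (*Bcl2l11*) the FOXO letters and 1 (*Bcl2l1*) the E2F letters. A match gives the letters only and is not a measured site.

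The other survival genes lay lower in knockdown than in control cells by smaller amounts, and none passed. *Mcl1*, whose short-lived protein binds BIM and BAK, stood at 10.51, 10.47 and 10.45 on the knockdown arrays and at 10.66, 10.67 and 10.67 on the control arrays. All knockdown values lay below all control values by at least 0.15, and the 3 control arrays hardly differed (SD 0.0030). The log2 difference of -0.19 had an interval of -0.43 to 0.05 (adjusted p = 0.286), since limma takes the spread of a gene partly from that of all tested genes. In the fit to all 19938 genes the interval of *Mcl1* was -0.36 to -0.02 and its adjusted p 0.213.

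*Bcl2l1*, which encodes BCL-xL, stood at 8.50, 8.36 and 8.48 on the knockdown arrays and at 8.59, 8.56 and 8.54 on the control arrays. The groups were separated by only 0.04, and the difference of -0.12 had an interval of -0.30 to 0.06. *Bcl2l2*, which encodes BCL-w, ranged from 8.22 to 8.27 in knockdown cells and from 8.25 to 8.45 in control cells, so its groups overlapped (difference -0.10, interval -0.29 to 0.09). Neither gene passed the variation filter, and both values come from the fit to all genes (adjusted p = 0.487 for *Bcl2l1* and 0.574 for *Bcl2l2*). The annotation puts 4 RefSeq mRNAs of *Bcl2l1* under 1 cluster and 5 of *Bcl2l11* under 1 cluster. The long and short forms of these genes, which differ in function, were therefore not told apart here.

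Averaged over the 4 survival genes, the level relative to the control mean was -0.17, -0.26 and -0.23 on the knockdown arrays and -0.01, 0.01 and 0.00069 on the control arrays. The average of the other 6 genes was 0.06, -0.03 and 0.05 on the knockdown arrays and 0.02, -0.06 and 0.04 on the control arrays. The survival average was thus lower on every knockdown array than on any control array, while the average of the genes that promote death overlapped between the groups. The called gene *Bcl2* entered the survival average at -0.34, -0.54 and -0.53 on the knockdown arrays. *Bmf* entered that second average at -0.51, -0.50 and -0.38 on the knockdown arrays. It was the only gene there with a negative difference, and none of the positive differences passed. The median log2 difference was -0.15 for the 4 survival genes (range -0.47 to -0.10) and 0.09 for the 6 death genes (range -0.46 to 0.22), beside 0.03 for all 19938 genes. These are descriptions over genes, which are not replicates, and the difference between the roles was not tested.

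Among the genes that promote death, *Bcl2l11* was the only member whose knockdown values all lay above the control values. BIM, its product, binds every survival protein and is a main trigger of death in sympathetic neurons deprived of growth factor. It stood at 7.65, 7.52 and 7.54 on the knockdown arrays and at 7.42, 7.29 and 7.34 on the control arrays, a difference of 0.22 (SE 0.12, interval -0.03 to 0.46, adjusted p = 0.240). The fit to all genes gave an interval of 0.03 to 0.40 and an adjusted p of 0.197, so the gene did not pass there either. With arrays weighted by their spread its adjusted p was 0.0184, a setting under which 5561 of 9969 genes passed.

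*Bak1*, the pore former, varied more between arrays of 1 group than between the groups. It stood at 9.45, 9.43 and 9.72 on the knockdown arrays and at 9.08, 9.30 and 9.64 on the control arrays, with replicate 3 highest in both groups and control replicate 1 lowest of all. The difference of 0.19 had an interval of -0.12 to 0.51 (adjusted p = 0.415), and it was -0.11 with arrays weighted by their spread (adjusted p = 0.357).

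Among the genes that promote death, *Bid*, *Hrk* and *Bad* had the smallest differences. *Bid*, whose protein is cut by caspase-8 and so links death receptors to mitochondria, ranged from 9.38 to 9.47 in knockdown cells and from 9.31 to 9.40 in control cells (difference 0.08, interval -0.09 to 0.26). *Hrk*, induced in neurons that lose growth factor, ranged from 8.40 to 8.52 in knockdown cells and from 8.24 to 8.49 in control cells (0.10, interval -0.10 to 0.31). *Bad*, whose protein is kept inactive by phosphorylation downstream of growth factors, ranged from 7.91 to 8.13 in knockdown cells and from 7.97 to 7.98 in control cells (0.03, interval -0.17 to 0.22). The groups overlapped for all 3 genes, and none passed the variation filter (adjusted p in the fit to all genes 0.619 for *Bid*, 0.607 for *Hrk* and 0.906 for *Bad*). As ratios of knockdown over control the intervals ran from 0.891 to 1.16 for *Bad*, from 0.939 to 1.20 for *Bid* and from 0.931 to 1.24 for *Hrk*.

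Over the 10 members the knockdown and control arrays did not overlap for 5 genes, with the knockdown lower for 4 (*Bcl2*, *Bmf*, *Mcl1* and *Bcl2l1*) and higher for 1 (*Bcl2l11*). Of all 19938 genes the groups did not overlap for 23.5%, with 10.8% lower and 12.8% higher in the knockdown. Of the members 5 passed the variation filter (*Bcl2*, *Mcl1*, *Bak1*, *Bcl2l11* and *Bmf*), as did 9969 of all genes.

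**Figure D3:**
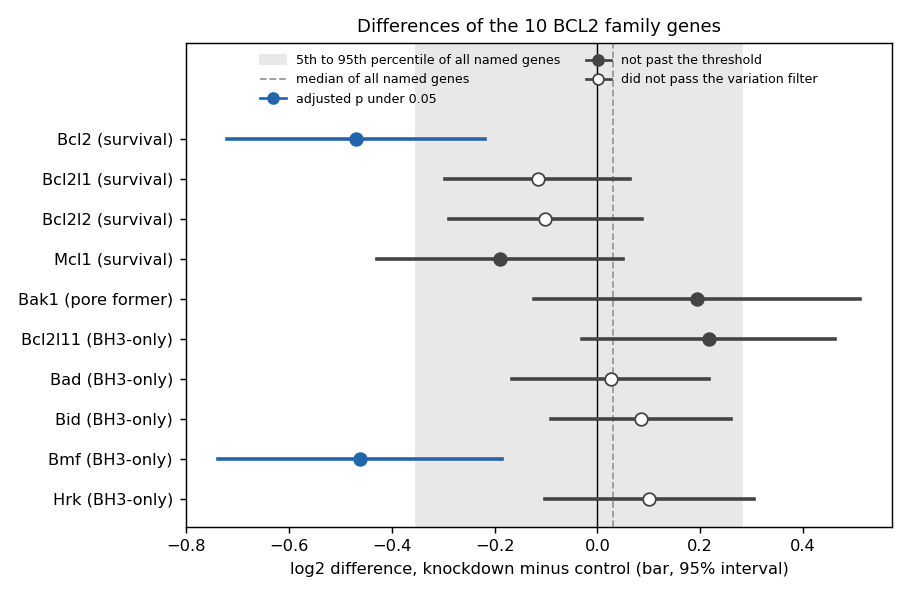
Log2 difference, knockdown minus control (x axis), of the 10 genes (y axis), with 95% intervals from limma; blue marks an adjusted p under 0.05, open points did not pass the variation filter, and the grey band spans the 5th to 95th percentile of all named genes (-0.35 to 0.28). *Bcl2* and *Bmf* lie at -0.47 and -0.46, outside the band, and the other 8 intervals as drawn include 0. Filled points come from the filtered fit and open points from the fit to all genes. In the fit to all genes the intervals of *Mcl1* (-0.36 to -0.02) and *Bcl2l11* (0.03 to 0.40) excluded 0, and neither gene passed.

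The rest of the death pathway was described with 6 gene lists. They held relatives of the family, apoptosome and caspases, inhibitor of apoptosis (IAP) proteins and antagonists, death receptors, BCL2 partners and BCL2 regulators. Of their 111 measured genes 9 were called, 5 higher and 4 lower in knockdown cells, against 752 of all 19938 genes (3.77%), 238 higher and 514 lower. In the fit to all genes without the variation filter 6 of these 9 passed, and *Bnip3* (adjusted p = 0.106), *Apaf1* (0.0584) and *Naip2* (0.0734) did not. Of 15 further BCL2 relatives, *Bnip3* fell 1.66-fold (adjusted p = 0.0403), none rose and 14 did not pass (median log2 difference -0.01). *Bnip3* encodes a mitophagy receptor with a BH3-like stretch that is induced by hypoxia, and it stood at 10.52, 10.79 and 11.28 on the knockdown arrays and at 11.32, 11.42 and 12.03 on the control arrays, so that the groups nearly met. The BH3-only genes *Bbc3* and *Pmaip1*, which p53 induces and which are named here after their values were seen, had differences of 0.18 (interval -0.04 to 0.41) and 0.08 (interval -0.12 to 0.29).

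Downstream of the mitochondrion, 2 of 12 genes of the apoptosome and caspases rose, none fell and 10 did not pass (median 0.11). Of these 12 genes 8 had passed the variation filter, and of all genes that passed it 2.39% rose and 5.16% fell. *Apaf1*, the scaffold that cytochrome c assembles into the apoptosome, stood at 9.85, 9.88 and 9.53 on the knockdown arrays and at 9.19, 9.36 and 9.33 on the control arrays, a 1.38-fold rise (adjusted p = 0.0451). *Casp2*, an initiator caspase, stood at 10.94, 10.95 and 10.77 on the knockdown arrays and at 10.44, 10.43 and 10.55 on the control arrays, a 1.34-fold rise (adjusted p = 0.0454). *Pidd1*, the scaffold protein on which caspase-2 is activated, was the only called gene of 17 death receptors and adaptors (median 0.05) and rose 1.49-fold (adjusted p = 0.0144), with 9.24, 9.06 and 9.09 on the knockdown arrays and 8.43, 8.69 and 8.56 on the control arrays. In each of these 3 genes the groups were separate.

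IAP proteins block caspases or, for the NAIP proteins, sense bacterial ligands, and this list moved both ways. Of 13 measured genes of IAP proteins and their antagonists, 3 fell, 1 rose and 9 did not pass (median -0.11). The variation filter had kept 10 of these 13 genes, and of all genes that passed it 2.39% rose and 5.16% fell. *Naip6* fell 1.60-fold (adjusted p = 0.0153), *Naip5* 1.57-fold (adjusted p = 0.0139) and *Naip2* 1.39-fold (adjusted p = 0.0482), all with separate groups. The NAIP genes are close copies of each other and may share probes, which was not tested, so the 3 falls may not be separate observations. *Birc5*, which encodes survivin, a mitotic protein as well as an IAP, rose 1.34-fold (adjusted p = 0.0481) and ranged from 10.15 to 10.22 in knockdown cells and from 9.59 to 9.89 in control cells.

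Of 32 regulators of BCL2 proteins *Pim1* rose 1.33-fold (adjusted p = 0.0492) and 31 did not pass (median -0.02). PIM1 is a kinase that phosphorylates BAD, and its gene ranged from 11.01 to 11.12 in knockdown cells and from 10.57 to 10.78 in control cells. None of 22 genes listed as partners of BCL2 proteins passed (median 0.01). An unadjusted limma p under 0.05 was reached by 3 of these 22, beside 2777 of all 19938 genes, a similar share. The largest differences there were those of the calcium channel gene *Itpr2* (-0.40, adjusted p = 0.0583) and of the co-chaperone gene *Bag3* (0.38, adjusted p = 0.0561, and 0.0422 in the fit to all genes). Of the 9 listed genes that were called, 2 (*Naip5* and *Naip6*) passed without knockdown replicate 1, none without knockdown replicate 2, control replicate 1 or control replicate 3, 8 without knockdown replicate 3 and 7 without control replicate 2.

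**Figure D4:**
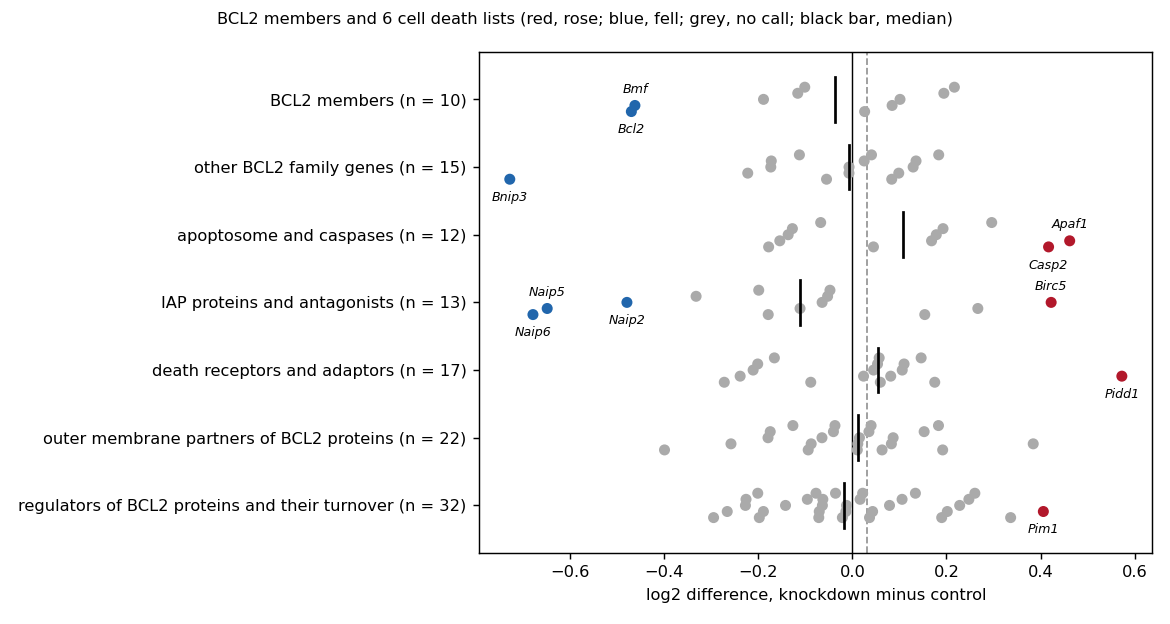
Log2 difference, knockdown minus control (x axis), of the 10 BCL2 members and of every measured gene of 6 cell death lists (y axis); red genes rose and blue genes fell at an adjusted p under 0.05, black bars give list medians and the dashed line the median of all genes (0.03). The called genes are *Bcl2*, *Bmf*, *Bnip3*, *Naip6*, *Naip5* and *Naip2* to the left and *Casp2*, *Apaf1*, *Birc5*, *Pidd1* and *Pim1* to the right.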

How the data were processed

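According to the study's methods and the labels, 200 ng of RNA per sample was labelled, and the authors background corrected the arrays, quantile normalised them and summarised probes by RMA, which gives the deposited log2 values of 35556 transcript clusters (the sources used here give no tool versions). In the platform annotation 21789 clusters carry 1 gene symbol, 1621 carry several and 12146 carry none. The cluster with the highest mean was kept per gene, which left 19938 genes. The study's methods remove genes of little variation at a variance cut-off of 0.5, read here as the lower 50% of genes by interquartile range, and *Paupar* knockdown was compared with control in limma 3.58.1 (R 4.3.3), across all genes, with Benjamini-Hochberg adjustment. For members removed by this filter, the values come from a fit of every named gene. The members, lists and tests were chosen with earlier results of these data known. Named from each list were up to 4 called genes, or, where none was called, the 2 with the largest differences. Alternatives covered the filter, the variance model, array weights, centring, cluster choice, a replicate block and each array left out. Promoter windows were searched with Python 3.11.15. The steps were tested on simulated data. The number of arrays limits the precision.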

Additional observations from a re-analysis of the deposited data

How the results depend on the processing

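The number of genes called (752) moved to 5561 with arrays weighted by their spread and to 0 in limma when all clusters, named or not, entered the filter and the test; there 3015 of 17778 clusters, *Bcl2* and *Bmf* among them, had an unadjusted p under 0.05. With 1 array left out it ranged from 112 to 1239. The number of members called (2) was 1 without the variation filter, 1 with the replicate number as a block and 0 with all clusters kept (adjusted p = 0.180 for *Bcl2* and 0.205 for *Bmf*), and it ranged from 0 to 2 with 1 array left out. Replicate numbers did not pair the samples: deviations of same-numbered arrays correlated at -0.29, 0.06 and 0.08, and not every array correlated best with its own number. With the replicate block 680 genes were called, *Bcl2* kept its call (0.0391) and *Bmf* missed it (0.0504); of the 9 called genes of the cell death lists 4 kept their call (*Bnip3*, *Naip5*, *Naip6* and *Pidd1*), and *Apaf1*, *Casp2*, *Naip2*, *Birc5* and *Pim1* missed it. *Bcl2* and *Bmf* were lower in the knockdown under all 15 alternatives. Centring arrays on their median changed neither call (0.0356 and 0.0470) but removed that of *Bnip3* and *Naip2*. *Bak1* with array weights (-0.11) and *Bad* without knockdown replicate 1 (-0.04) changed sign, and neither was called.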
